A study of Mus musculus with 3 samples.

Results

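Caspases are the cysteine proteases that carry out programmed cell death and inflammatory cell lysis, and the genes described here are 6 caspase genes, Casp1, Casp2, Casp6, Casp8, Casp9 and Casp12, with Apaf1, which encodes the adaptor that activates caspase-9, and Cflar, which encodes the caspase-8 relative c-FLIP. They were taken by symbol as 8 of 52636 gene identifiers counted by RNA-seq in normal mouse thymus. The samples were 3 thymi, the control group of a study of T cell lymphomas that lack Cic, the gene of the transcriptional repressor capicua. All 3 came from C57BL/6 mice that were homozygous for the floxed Cic allele and were given tamoxifen (Cic flox/flox + TAM). No Cre transgene and no age is named for them, and the lymphomas are not analysed here. The group therefore gives levels and replicate error, with no contrast between conditions. It is not stated whether each library was a separate animal, so every test below measures the spread between these libraries, which may be technical in part.

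Death receptors of the TNF receptor family recruit the adaptor FADD, which gathers procaspase-8 into a complex where it activates itself, and c-FLIP joins the same complex and sets whether that activation goes to completion. In the mitochondrial route, cytochrome c released from mitochondria binds APAF1, which assembles into the apoptosome and activates caspase-9. Caspase-2 is activated on a platform built by PIDD1 and CRADD after DNA damage or errors of cell division, caspase-6 is an executioner caspase that cuts lamins, caspase-1 matures interleukin-1 beta and interleukin-18 in inflammasomes, and caspase-12 is a relative of caspase-1. Thymocytes that fail selection die largely through the mitochondrial route, and dying thymocytes are cleared quickly by macrophages.

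The stretch of coding sequence that holds the catalytic cysteine shows how the caspases differ from c-FLIP, and it is printed for the 7 genes of that fold, 5′ to 3′ from GENCODE M21 transcripts (GRCm38). Capitals mark the codon of the catalytic cysteine. In Cflar they mark the codon in the same place, reached by counting codons on from a gap-free match to Casp8.
Casp1: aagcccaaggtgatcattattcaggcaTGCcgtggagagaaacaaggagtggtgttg
Casp12: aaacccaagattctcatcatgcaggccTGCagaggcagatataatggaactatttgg
Casp2: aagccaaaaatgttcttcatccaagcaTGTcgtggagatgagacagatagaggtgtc
Casp6: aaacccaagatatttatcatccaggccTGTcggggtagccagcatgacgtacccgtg
Casp9: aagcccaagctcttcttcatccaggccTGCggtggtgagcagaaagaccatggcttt
Casp8: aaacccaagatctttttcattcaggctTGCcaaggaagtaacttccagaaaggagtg
Cflar: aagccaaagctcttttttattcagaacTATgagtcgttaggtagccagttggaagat

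The 6 caspase genes each had a cysteine codon, TGC or TGT, while the Cflar capitals spell TAT, a tyrosine codon. This codon is number 382 of 500 in the longest Casp8 coding sequence and number 365 of 484 in that of Cflar. Casp8 and Cflar were identical at 45.2% of bases over 437 aligned codons, and their longest identical run was 9 bases. Casp1 and Casp12, both on chromosome 9, were the most alike of the 21 pairs compared, with 56.6% over 391 aligned codons and a longest run of 12 bases. No pair had an identical run of more than 15 bases in these alignments.

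The libraries are numbered thymus 1, 2 and 3 as their replicates are in the labels, and held between 25408442 and 30414788 reads assigned to genes. Levels are CPM, the usual depth-scaled read count, with library sizes adjusted by TMM, and levels of different genes are compared only per kilobase of merged exon. Thymocyte markers were high in each library, with Rag1 at 4069 ± 169 and Cd8a at 1827 ± 38.6 CPM (SD, n = 3), and none of the 10 was at 0. Cic, the gene floxed in these mice, was at 259, 271 and 262 CPM. Other cells were present. The 13 macrophage and dendritic cell markers summed to 3038, 2794 and 2135 CPM in thymus 1, 2 and 3 and were each lowest in thymus 3. Hbb-bs, a globin gene of red cells, was at 662, 29.7 and 146 CPM. In bulk tissue, fewer cells of a type and less RNA per cell cannot be told apart.

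Casp8, the initiator of the death receptor route (chromosome 1, 58795374 to 58847503, plus strand), had 2445, 2254 and 1747 counts in thymus 1, 2 and 3. Its level was 80.2, 76.7 and 70.8 CPM, or 75.9 ± 4.79 CPM (SD, n = 3), lowest in thymus 3. Cflar lies 36490 bases upstream on the same strand (58711508 to 58758884) and had 6263, 6193 and 4917 counts. It stood at 206, 211 and 199 CPM, or 205 ± 5.83 CPM, so the 3 thymi lay within a factor of 1.06. Per kilobase of merged exon, Casp8 was at 27.7, 26.5 and 24.5 and Cflar at 16.2, 16.6 and 15.7. The groups of 3 values did not overlap, and the Cflar level was 0.618 ± 0.0299 times that of Casp8 within libraries. This order rests on the length used. Cflar has 13 annotated transcripts that merge to 12669 bases of exon, while its longest transcript has 6572 bases, against 2893 and 2585 bases for Casp8. Per kilobase of longest transcript the ratio was 1.07 ± 0.0516 and the values of both genes overlapped. The counts are per gene, so the long and short forms of c-FLIP, which act differently on caspase-8, are summed.

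Per kilobase, Fas and Tnfrsf1a stood above Casp8, and Fadd and Fasl below it. Of 11 genes for death receptors, their ligands and adaptors, all exceeded 1 CPM in every library. Fas, the receptor for Fas ligand, led the list with 50.1 ± 5.32 CPM per kilobase, followed by Tnfrsf1a, the TNF receptor, at 33.2 ± 3.30 and Traf2, an adaptor of TNF receptors, at 18.4 ± 0.168. Fadd, the adaptor that binds procaspase-8, was at 3.21 ± 0.331 CPM per kilobase, and Fasl, the ligand, at 1.22 ± 0.321. The Fasl libraries held 2.99, 2.35 and 1.74 CPM. The necroptosis genes, whose products act when caspase-8 is blocked, were led by the sensor gene Zbp1 at 20.1 ± 1.47, the kinase gene Ripk3 at 16.05 ± 0.174 and the deubiquitinase gene Cyld at 12.5 ± 0.314 CPM per kilobase. Mlkl, the last of these 4 genes, was far lower, at 1.13 ± 0.101 CPM per kilobase. By longest transcript Cyld was above Ripk3, at 19.6 ± 0.493 against 18.7 ± 0.203.

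Apaf1 (chromosome 10, 90989311 to 91082770, minus strand) had 2379, 2057 and 1864 counts, which gave 78.1, 70.0 and 75.5 CPM. Thymus 2 was the lowest. Casp9, the protease the apoptosome activates (chromosome 4, 141793612 to 141815976, plus strand), had 772, 732 and 621 counts and stood at 25.3, 24.9 and 25.2 CPM. Its coefficient of variation was 0.830%, at percentile 1.02 of all genes tested. The counting intervals are wider than that: in thymus 1 the 95% exact Poisson interval ran from 23.6 to 27.2 CPM, so the closeness of the 3 values is finer than the counts could resolve. Such intervals describe counting error alone, because each is computed from 1 count. The reads have no molecular barcodes, so repeated copies of a molecule are not set apart.

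Apaf1 was at 8.26 ± 0.455 and Casp9 at 4.84 ± 0.0402 CPM per kilobase (SD, n = 3), with no overlap between the libraries of one gene and the other. Casp9 was 0.587 ± 0.0281 times Apaf1 within libraries, and 0.570 ± 0.0273 times by longest transcript. Casp8 was 5.42 ± 0.331 times Casp9, with 5.69, 5.53 and 5.05 times in thymus 1, 2 and 3, and 4.55 ± 0.278 times by longest transcript. The initiator of the death receptor route had more transcript per kilobase than the initiator of the mitochondrial route in each of the 3 libraries. An exact sign-flip test (two-sided) over 3 libraries has a smallest p of 0.25, so these ratios are given with no test.

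Among the mitochondrial partners, Diablo, whose product relieves inhibition of caspases, led with 16.7 ± 1.16 CPM per kilobase, ahead of the protease gene Htra2 at 11.1 ± 0.822 and Aifm1, the gene of apoptosis-inducing factor, at 9.74 ± 0.288. Cycs, which encodes the somatic cytochrome c, was at 6.42 ± 1.31, with 20.5, 18.2 and 26.8 CPM in thymus 1, 2 and 3. The IAP genes, whose products bind caspases or the complexes that activate them, were above both apoptosome genes in their leading members. Birc5, the gene of survivin, which also acts in mitosis, was at 42.2 ± 5.30, Birc2 at 40.5 ± 3.61 and Xiap, the direct inhibitor of caspase-9, at 23.8 ± 2.55 CPM per kilobase. This order rests on the length used. Per kilobase of longest transcript Birc2 led, at 55.6 ± 4.97, ahead of Birc5 at 43.1 ± 5.41. The IAP gene Birc6, at 35.8 ± 1.61, was then above Xiap, at 33.0 ± 3.54.

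Casp2 (chromosome 6, 42264985 to 42282508, plus strand) had 5773, 5376 and 4792 counts and stood at 189, 183 and 194 CPM. At 26.8 ± 0.791 CPM per kilobase it lay at percentile 87.3 of all genes tested and did not separate from Casp8, at 26.2 ± 1.65 and percentile 86.9. Per kilobase of longest transcript Casp2 was the highest of the 8 genes, at 53.5 ± 1.58, with no overlap with Cflar, the next. Of the partners that build its platform, Pidd1 was at 9.28 ± 1.39 and Cradd at 1.29 ± 0.183 CPM per kilobase. The Pidd1 libraries held 37.2, 39.8 and 49.1 CPM, highest in thymus 3.

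Casp6 (chromosome 3, 129901425 to 129914103, plus strand) had 1947, 1800 and 1778 counts and stood at 63.9, 61.3 and 72.0 CPM, or 65.7 ± 5.61 CPM (SD, n = 3). Thymus 3 was the highest, at 110% of the mean, where Casp8 was lowest, at 93.2%. Per kilobase Casp6 was at 11.8 ± 1.004. Of the genes for caspase substrates and for DNA fragmentation, Lmnb1, the gene of lamin B1, led with 73.9 ± 2.79 CPM per kilobase, followed by Acin1, the gene of the chromatin condensation factor acinus, at 32.8 ± 0.682 and the kinase gene Pak2 at 27.7 ± 0.623. Per kilobase of longest transcript the kinase gene Rock1 was above Pak2, at 41.7 ± 4.46 against 32.8 ± 0.737.

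Casp1 (chromosome 9, 5298517 to 5307265, plus strand) had 753, 647 and 572 counts and stood at 24.7, 22.03 and 23.2 CPM. Casp12 (5345430 to 5373032 on the same chromosome and strand, 38165 bases downstream) had 420, 314 and 314 counts and stood at 13.8, 10.7 and 12.7 CPM, the lowest level of the 8 genes. Both were highest in thymus 1 and lowest in thymus 2, as was Apaf1. For Casp12, thymus 3 did not separate from thymus 1 or thymus 2 by the test of counting noise described below. The Casp1 order is not resolved by the counts. Its 95% exact Poisson interval ran from 23.0 to 26.5 CPM in thymus 1 and from 20.4 to 23.8 CPM in thymus 2. Per kilobase Casp1 was at 15.6 ± 0.9004 and Casp12 at 3.23 ± 0.409, a ratio of 4.85 ± 0.377 within libraries, or 3.35 ± 0.260 by longest transcript. Casp1 has a single annotated transcript of 1497 bases against the 12669 bases of merged exon of Cflar, and per kilobase of merged exon the values of both genes overlapped. By longest transcript they did not, with Cflar at 31.2 ± 0.887 and Casp1 at 15.6 ± 0.9004. Interferon-stimulated genes, a programme that can raise inflammatory caspases, summed to 577, 486 and 498 CPM and 10 of 12 were highest in thymus 1. Of the macrophage and dendritic cell markers, from cells that carry inflammasomes, 9 of 13 were also highest in thymus 1. All 13 of them were lowest in thymus 3. Among the 16548 genes tested, 3989 were highest in thymus 1 and 6562 lowest in thymus 3. The part of the interferon programme or of these cells in the Casp1 and Casp12 levels was not tested.

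The inflammasome partners of caspase-1 spanned the widest range of the pathway lists. Pycard, the gene of the adaptor ASC, was at 69.2 ± 8.09 CPM per kilobase and Gsdmd, the gene of the pore former gasdermin D, at 25.8 ± 1.46. Il18, a caspase-1 substrate gene, was at 9.14 ± 0.771. The sensor gene Nlrp3 and the substrate gene Il1b were low, at 0.242 ± 0.0963 and 1.77 ± 0.408 CPM per kilobase. Of the 12 genes, 10 exceeded 1 CPM in every library and the list median was 1.72 CPM per kilobase, below every caspase gene described here. In the plot of cell death genes by role, Pycard tops the inflammasome list, which reaches lower than the other lists shown.

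**Figure D1:**
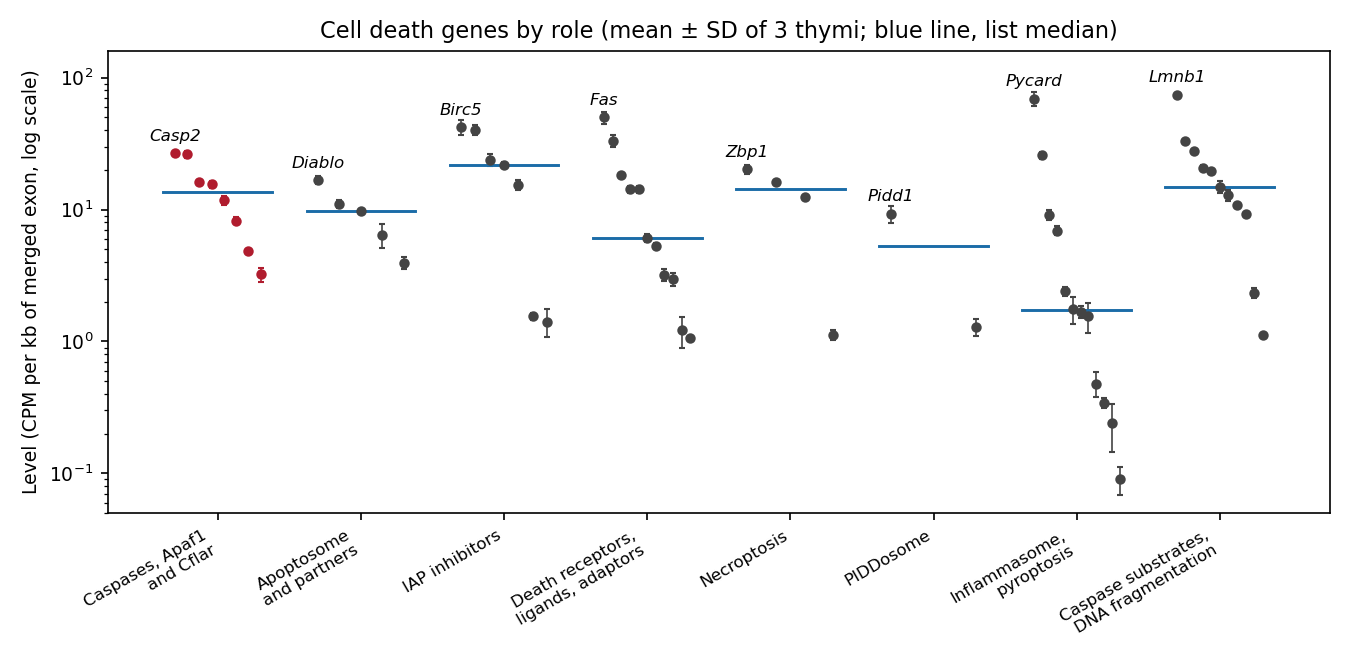
Level in CPM per kilobase of merged exon (log scale) of the 8 genes described here (red) and of 7 lists of cell death genes by role (grey); points are means and bars SDs of 3 thymi, blue lines are list medians, and the highest gene of each list is named. Of the named genes, Pycard, Lmnb1, Fas and Birc5 stand above Casp2. The inflammasome list reaches lowest, with Gsdme at 0.0901.

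Ranked by mean level per kilobase of merged exon, the order was Casp2, Casp8, Cflar, Casp1, Casp6, Apaf1, Casp9 and Casp12. Casp2 and Casp8 overlapped, as did Cflar and Casp1, and the other neighbours in that order did not. Casp6, Apaf1, Casp9 and Casp12 kept these places in each of the 3 libraries. By longest transcript the order was Casp2, Cflar, Casp8, Casp6, Casp1, Apaf1, Casp9 and Casp12, with overlap between Cflar and Casp8 and between Casp6 and Casp1. Under both lengths Casp2 was first by its mean, and Apaf1, Casp9 and Casp12 were the lowest. The median of the 8 genes was 13.7 CPM per kilobase, against 4.98 for all 16548 genes tested.

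**Figure D2:**
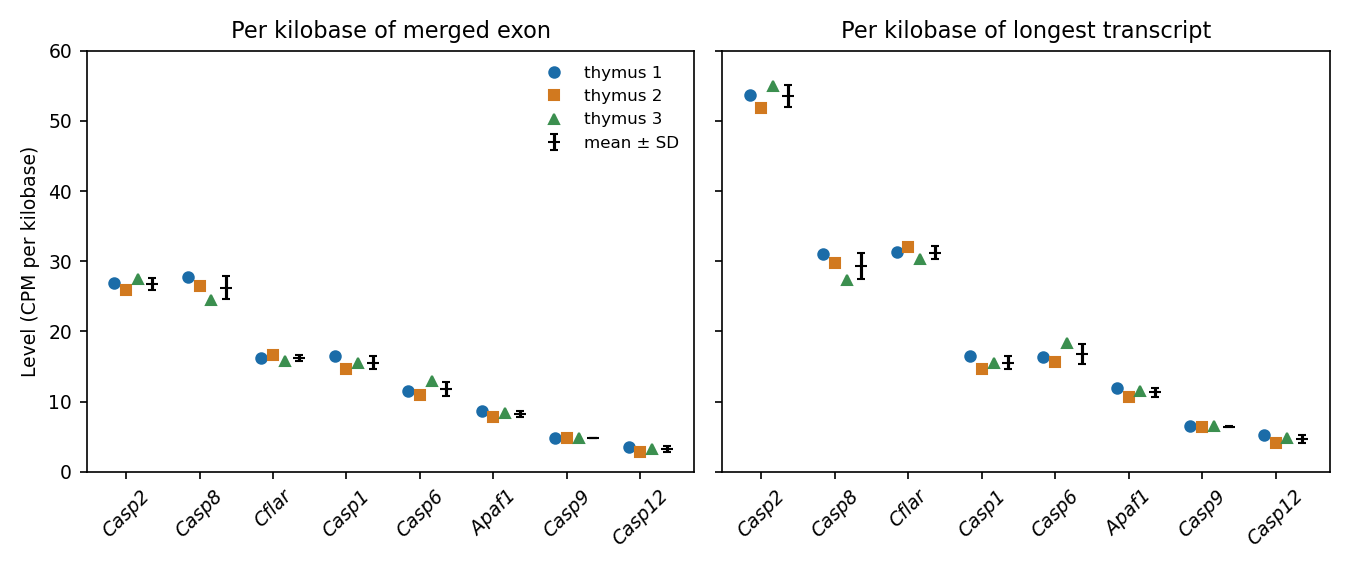
Level of each gene in CPM per kilobase of merged exon (left) and of longest transcript (right); coloured symbols are thymus 1, 2 and 3, and black bars are the mean ± SD of the 3. Casp2 and Cflar rise most between the panels because their merged exons are much longer than their longest transcripts.

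The next question was how much these genes differ between the 3 libraries of control thymus, a spread that may be technical in part. Set against the abundance trend, 0 of the 8 genes were unusually variable (one-sided test on the quasi-likelihood dispersion, edgeR, Benjamini-Hochberg threshold 0.05), where 0.0604% of all genes tested were. The lowest adjusted p was 0.984, and 0 of the 8 had an unadjusted p under 0.05, against 4.42% of all genes. With 3 libraries this test has little power. The neutrophil marker S100a9, whose highest library was 2.93 times its lowest, also did not pass it (adjusted p 0.533). The lack of calls therefore cannot show that the 8 genes are steady. Negative binomial goodness of fit, which called 0.737% of all genes, and DESeq2 dispersion outliers, which called 0.489%, each called 0 of the 8. The highest library was between 1.02 times (Casp9) and 1.29 times (Casp12) the lowest. The median coefficient of variation was 5.65%, against 6.42% for the 8329 genes in the same range of CPM and 9.06% for all genes tested. The plot of spread by level shows the 8 genes inside the cloud of all genes, with Casp9 near its lower edge.

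**Figure D3:**
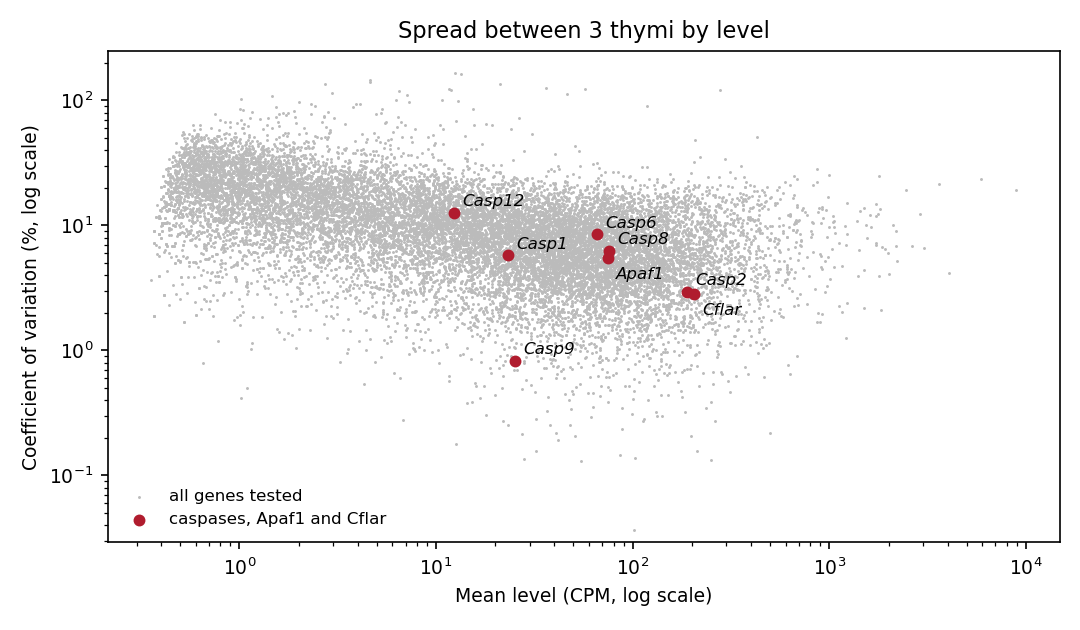
Coefficient of variation between the 3 thymi (%, log scale) against mean level (CPM, log scale) for all 16548 genes tested (grey) and the 8 genes described here (red). Casp12 has the largest spread of the 8, at 12.7%, and Casp9 the smallest, at 0.830%.

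Small differences between the libraries were still larger than counting noise for 6 of the 8 genes (edgeR goodness of fit to Poisson counts, Benjamini-Hochberg threshold 0.05). The background is 43.4% of all genes tested, and 58.7% of the genes in the same range of CPM, and no difference from it is claimed for 8 genes. The adjusted p was 2.04e-05 for Casp6, 0.00107 for Casp8, 0.00382 for Apaf1, 0.00751 for Casp12, 0.0283 for Casp2 and 0.0299 for Cflar. Casp1 (0.174) and Casp9 (0.967) did not pass. The calls for Casp6 and Casp8 were lost without thymus 3 (0.399 and 0.295), where Casp6 was highest and Casp8 lowest, and that for Apaf1 without thymus 2 (0.457), its lowest library. The Casp12 call was lost without thymus 1 (0.0611) or thymus 2 (0.471). The Casp2 and Cflar calls were lost without thymus 2 (0.442 and 0.207) or thymus 3 (0.190 and 0.358). The Cflar call was also lost with DESeq2 size factors (0.0716), and that of Casp2 with library totals (0.915), with no filter on low counts (0.107) or with a mean of at least 5 CPM (0.0583). The number of the 8 genes past this test was thus 5, 2 and 2 without thymus 1, 2 and 3, where the share of all genes tested was 39.7%, 26.2% and 22.3%, also below 43.4% in each case.

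Of the 8 genes, 6 were lowest in thymus 2, as were 5961 of the 16548 genes tested. The 6 include Casp1 and Casp9, which did not vary beyond counting noise, so their lowest library is not resolved. With 1 library left out, the Poisson goodness of fit compares the ones kept. By it, thymus 2 did not separate from thymus 1 for Casp6 or Casp2 (adjusted p 0.399 and 0.190). Nor did it separate from thymus 3 for Casp12 (0.0611), while for Apaf1 it did (0.0328). Highest in thymus 1 were 5 of the 8, as were 3989 of the 16548. By the same test none of the 5 separated from its next highest library. Casp8 and Cflar were lowest in thymus 3, where Casp6 and Casp2 were highest. For Cflar and Casp2, however, thymus 3 did not separate from thymus 1 (adjusted p 0.207 and 0.442, Poisson goodness of fit without thymus 2). Marker lists differed in thymus 3, but not all in one direction. The 13 macrophage and dendritic cell markers and the 5 B cell markers were each lowest there, and the B cell markers summed to 1309, 1298 and 1262 CPM. The 6 neutrophil markers summed to 19.5, 16.5 and 39.1 CPM, highest in thymus 3. Of the 5 that passed the filter, however, 3 were highest and 2 lowest there. The 7 markers of thymic epithelium summed to 2010.5, 2041 and 2178 CPM, yet 2 were highest and 4 lowest in thymus 3. The 5 endothelial markers summed to 113, 126 and 103 CPM, of which Pecam1 made up 102, 113 and 92.0 CPM. Of the 5, 3 were highest in thymus 2 and 3 lowest in thymus 3. The 6 mesenchymal markers summed to 175, 148 and 182 CPM, of which Dcn made up 108, 78.9 and 108 CPM. In each thymus 2 of the 6 were lowest, so the low sum in thymus 2 is not shared by the list. The 6 erythroid markers summed to 1023, 47.0 and 223 CPM. The 5 of them that passed the filter were each highest in thymus 1 and lowest in thymus 2. Of the 12 interferon-stimulated genes, 8 were lowest in thymus 2 and 4 in thymus 3. None of these markers was at 0 in all libraries. The 10 thymocyte markers summed to 15315, 15156 and 15492 CPM. The part of any of these cells, or of the interferon programme, in the levels of the 8 genes was not tested.

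**Figure D4:**
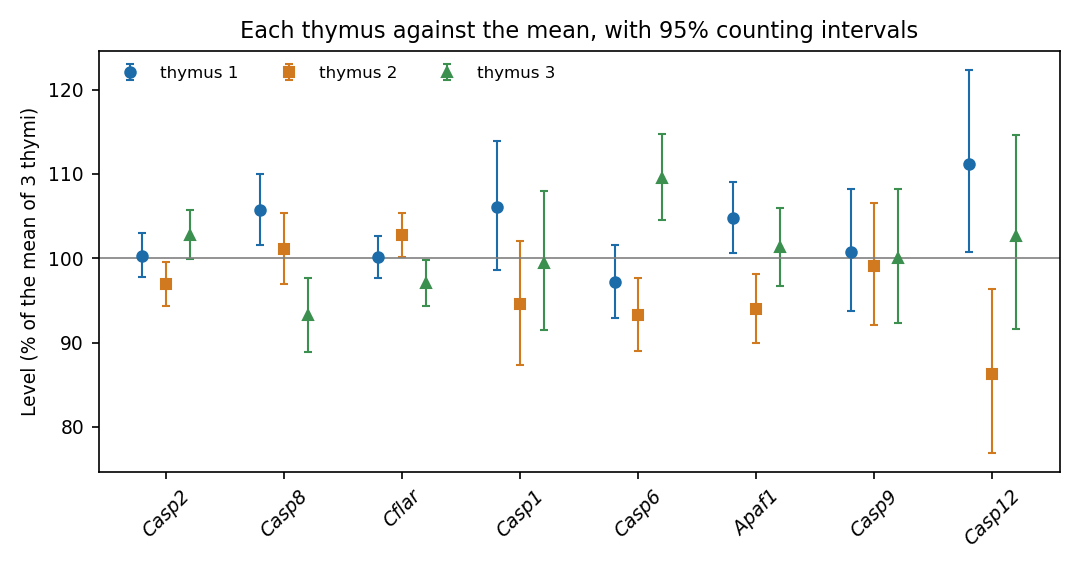
Level of each gene in thymus 1, 2 and 3 as a percentage of its mean over the 3; bars are 95% exact Poisson intervals, which cover counting error only. Casp6 in thymus 3 and Casp8 in thymus 3 lie on opposite sides of the mean, while the Casp9 values sit on it.

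The quasi-likelihood test of edgeR has the same low power here. By it, 0 of the 52 genes tested in the 7 pathway lists passed over all genes, where 0.0604% of all genes did. Of these 52, 1 (Cycs) had an unadjusted p under 0.05, and negative binomial goodness of fit and DESeq2 dispersion outliers called 0. The median coefficient of variation of a list ran from 3.09% for the substrate and DNA fragmentation genes to 11.1% for the inflammasome genes and 14.6% for the 2 platform genes of caspase-2, against 9.06% for all genes. Beyond counting noise, 6 of 7 IAP genes passed, as did 6 of 11 death receptor genes, 6 of 12 inflammasome genes, 5 of 11 substrate and DNA fragmentation genes, 3 of 5 apoptosome partners, 1 of 4 necroptosis genes and 1 of 2 platform genes of caspase-2, against the same 43.4% of all genes. Several of these counts changed with 1 library left out. The share of all genes tested changed too, to 39.7%, 26.2% and 22.3% without thymus 1, 2 and 3. Without thymus 1 the count fell to 3 for the death receptor genes and 2 for the inflammasome genes and came to 2 for the platform genes. Without thymus 2 it was 3 for the substrate genes. Without thymus 3 it was 2 for the death receptor genes, 3 for the substrate genes, 1 for the apoptosome partners and 0 for the platform genes. With library totals it was 8 for the substrate genes and 2 for the platform genes, and with a mean of at least 5 CPM it was also 2 for the platform genes. Under these settings the share of all genes tested was 46.8% and 59.6%.

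Strand and sequence sharing bear on how exact these counts are. Reads on the opposite strand made up between 0.0940% (Casp2) and 0.486% (Casp6) of the reads of a gene, against 3.40% over all genes. For Casp9, whose exons overlap those of Cela2a and Ctrc on the opposite strand, the stranded counts of 772, 732 and 621 exceeded the unstranded counts of 745, 711 and 598, since unstranded reads in the overlap are left out as ambiguous. For the other 7 genes the stranded count was lower by between 1 and 45 reads summed over libraries. Casp1, Casp2, Casp6, Casp9 and Casp12 share 0% of their 50-base stretches with transcripts of other genes, and Apaf1 shares 0.351%. Casp8 shares 4.37%, with the pseudogene Gm20257 (chromosome 1, 58652641 to 58655831), which had 94, 79 and 56 counts. Cflar shares 7.04%, mostly with the processed pseudogene Gm9845 on chromosome 3, which had 1 count in each library. STAR's gene counting leaves out reads that map equally well to both copies, so Casp8 and Cflar may be slightly low.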

How the data were processed

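The authors deposited a table of raw read counts for each thymus, with columns for either strand, the gene's strand and the reverse strand. Per the submitters' processing notes, STAR 2.5.3a, DESeq2 and the build GRCm38 were used, and libraries were made with a stranded mRNA kit per the labels' protocols. Which annotation was counted is not given in the sources used here. Counts on the reverse strand were analysed. The 4 summary lines, 30.9% to 33.6% of reads, entered no library size or test. Symbols and exon lengths come from GENCODE M21, which matched 52489 of 52636 identifiers.

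Genes passing edgeR's filter (minimum count 10, total 15) numbered 16548. Tools were R 4.3.3, edgeR 4.0.16 (TMM, intercept-only robust quasi-likelihood with 5.24 prior degrees of freedom, F test on the ratio of gene to trend dispersion, and Poisson goodness of fit) and DESeq2 1.42.0. Tests ran over all genes and were checked on simulated data. Coding sequences were aligned as codons. For scale, a level of 3 counts is 0.0985 to 0.122 CPM by library.

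The 8 genes and all lists were chosen with earlier results of these data known. Of each list the 3 genes most abundant per kilobase of merged exon were named, with any below 1 CPM in all libraries. Cycs, Fadd, Fasl, Il1b, Nlrp3, Rag1, Cd8a and Hbb-bs were named for their roles with their values in view. Mlkl, Pecam1, Dcn, S100a9, Birc6, Rock1 and Gsdme were also named with their values in view. Some listed genes and their lists are not reported here. No gene was matched by pattern, since 3 libraries of 1 condition give none.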

Additional observations from a re-analysis of the deposited data

How the results depend on the processing

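Length scaling moved the ratios between genes most. By longest transcript the Cflar to Casp8 ratio turned from 0.618 to 1.07, and with no length scaling to 2.71. Casp8 to Casp9 moved from 5.42 to 4.55 and 3.02, and Casp1 to Casp12 from 4.85 to 3.35 and 1.89. Casp9 to Apaf1 moved to 0.338 with no length scaling. Leaving out 1 thymus at a time kept the ratios between 0.606 and 0.635, 0.571 and 0.598, 5.29 and 5.61, and 4.64 and 4.98, in the order Cflar to Casp8, Casp9 to Apaf1, Casp8 to Casp9 and Casp1 to Casp12. The number of the 8 genes past the test of counting noise was 6, between 2 and 5 with 1 thymus left out (22.3% to 39.7% of all genes tested), and 5 or 6 under the other alternatives run, where the share of all genes ran from 22.1% with no filter to 59.6% with a mean of at least 5 CPM. The number more variable than the trend was 0 under all alternatives run, where between 0.0483% and 0.924% of all genes were called. DESeq2 size factors, library totals and the unstranded column moved the median of the 8 genes taken within each library, which averaged 13.6 CPM per kilobase over the 3 libraries, by less than its SD. Depth limits Casp12 most, with 314 counts in its lowest libraries.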
